A study of Homo sapiens with 7 samples.

Results

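The cathepsins, the main proteases of the lysosome, were followed in MCF-10A, a human breast epithelial cell line that is not transformed, by 10 genes: CTSA, CTSB, CTSC, CTSD, CTSF, CTSH, CTSK, CTSL, CTSS and CTSZ. Every probe with one of these symbols was taken, which gave 13 probes for the 10 genes, out of 19304 genes named on the array. Of the 10 genes, 9 were tested, among 12372 genes tested in all. CTSS was too dim to be tested.

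All cells carried a lentiviral short hairpin RNA under stable selection, either a scrambled hairpin (shControl, 3 arrays) or a hairpin against Brit1 (shBrit1, 4 arrays). They received no further agent, were plated at equal density in MCF-10A medium and were harvested after 48 h. The study asked how expression differs when Brit1, a gene of the DNA damage response, is knocked down. Total RNA was read on 1-colour bead arrays. The submitters call the arrays of a group biological replicates, but the labels do not say whether they came from separate transductions, and a single hairpin against Brit1 is described. Brit1 itself was not analysed here, so the names of the groups come from the labels alone.

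Between 16537 and 17343 of 48701 probes were detected on an array (detection p-value under 0.05) and precision is limited by there being 7 arrays. The third shControl array stood apart from the other controls. Over the tested probes its log2 values differed from theirs with an SD of 0.531 and 0.510, against 0.192 between shControl replicates 1 and 2 and at most 0.228 between any pair of shBrit1 arrays. Values are therefore given with and without it for many of the genes below, but not for all. It differed from the mean of the other controls by 0.64 log2 in GRN, 0.78 in PSAP and -0.79 in CST6. Those genes are given on all arrays only. Among the epithelial markers, which are given as counts, it differed by 1.7 in KRT14, -1.65 in KRT15 and -1.16 in EPCAM. Without the third array the only controls are replicates 1 and 2, whose descriptions share a letter. Whether those are separate cultures is not given, so p-values without the third control may understate the spread between cultures. The epithelial markers were present. Of 10 markers on the array 9 were detected on every array, and the tenth, KRT19, on the 4 shBrit1 arrays alone. Of the 10, 3 were called higher and 4 lower (limma, adjusted p under 0.05), or 30% and 40%. KRT19 is one of the 3, and it entered the test through the shBrit1 arrays alone. Among all genes tested the shares were 29.5% and 30.1%. In such bulk RNA a change in the share of cells that express a gene and a change of RNA per cell cannot be told apart.

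Cathepsins are made as inactive precursors, tagged with mannose 6-phosphate in the Golgi, carried to acidic compartments and activated there by removal of a propeptide. Most are cysteine proteases related to papain, CTSD is an aspartic protease, and CTSA is a serine carboxypeptidase. They degrade proteins delivered by endocytosis and autophagy, and some are also secreted and cleave matrix proteins. Cystatins and some serpins inhibit the cysteine members.

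In shBrit1 cells 6 cathepsin genes rose, 2 fell and 1 did not pass the test. CTSF (8.42-fold) and CTSH (7.07-fold) rose most, followed by CTSK (3.17-fold), CTSB (2.35-fold), CTSD (1.93-fold) and CTSA (1.78-fold). CTSC fell 2.95-fold and CTSL 1.40-fold. By the same rule (limma, adjusted p under 0.05) 59.6% of all genes tested were called, 29.5% higher and 30.1% lower, so a called cathepsin is no rare event in these data. The median log2 difference of the 9 tested cathepsins was 0.95, against -0.01 over all genes tested. In 8 of the 9 the arrays of one group lay wholly above or below those of the other, as they did in 61.8% of all genes, with shBrit1 above in 6 of the 9 (30.6% of all genes) and below in 2 (31.2%). Counted by probe, 53.8% of 17967 tested probes were called.

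By its brightest probe each called cathepsin kept its direction and its call under all 17 other processing settings that were tried, including the removal of any single array. Median scaling of the arrays moved the median of all genes to -0.15 and lowered every cathepsin with it, and the 6 higher and 2 lower calls were still made.

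**Figure D1:**
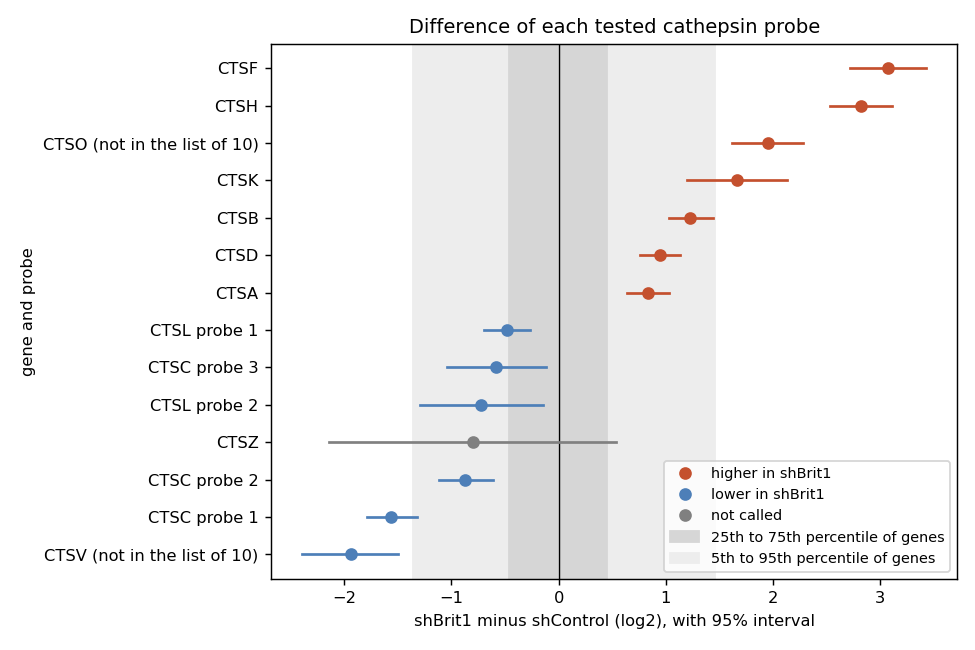
Difference between shBrit1 and shControl in log2 units (x axis) for each tested cathepsin probe (y axis), with its 95% interval from limma, and grey bands for the spread of differences over all 12372 genes. CTSF, CTSH, CTSK, CTSO and, on the lower side, the first CTSC probe and CTSV lie outside the 5th to 95th percentile band, which runs from -1.36 to 1.46.

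Promoter sequences are shown because lysosomal genes are known to share an element around the letters CACGTG, through which factors of the TFEB family act. RefSeq entries (GRCh38.p14) matched 7 of the 10 genes by symbol, and CTSB, CTSK and CTSS had none. CACGTG, which reads the same on both strands, was found in the promoters (250 bases before to 50 after the start) of CTSA, CTSD and CTSF. It was in 7.43% of all 27305 promoters of that length. The longer TCACGTGA, which contains CACGTG, was found in CTSA, and in 1.04% of all promoters. The first bases of the matches lay at -42 and -25 from the start in CTSA, at -47 in CTSD and at -123 and -51 in CTSF. CTSH, CTSC, CTSL and CTSZ held neither motif in this window. The 130 bases before the start are given 5′ to 3′ for the genes with a match and, for contrast, for CTSC, which fell. Capitals mark CACGTG. The stretches are chr20:45891205-45891334 on the plus strand for CTSA, and on the minus strand chr11:1763928-1764057 for CTSD, chr11:66568607-66568736 for CTSF and chr11:88337737-88337866 for CTSC.
CTSA: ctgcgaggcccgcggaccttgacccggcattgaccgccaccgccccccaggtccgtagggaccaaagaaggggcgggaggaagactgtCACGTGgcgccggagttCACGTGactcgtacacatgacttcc
CTSD: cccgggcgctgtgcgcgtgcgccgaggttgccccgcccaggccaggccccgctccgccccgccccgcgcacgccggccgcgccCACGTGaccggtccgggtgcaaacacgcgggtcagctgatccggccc
CTSF: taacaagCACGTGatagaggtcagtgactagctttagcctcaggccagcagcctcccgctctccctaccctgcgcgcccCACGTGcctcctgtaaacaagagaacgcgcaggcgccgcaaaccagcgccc
CTSC: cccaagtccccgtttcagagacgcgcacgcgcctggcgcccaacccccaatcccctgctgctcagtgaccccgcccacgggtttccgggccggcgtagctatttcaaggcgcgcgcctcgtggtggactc
The 3 genes with a match were all among the higher genes, but so was CTSH, which has none. CTSB and CTSK, also higher, had no promoter entry and cannot be placed. Any part of the motif in the differences was not tested. A match describes the letters only. No binding was measured.

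Among the cysteine endopeptidases, CTSF, a broadly expressed member with an unusually long propeptide, changed most. Its log2 intensity was 5.45, 5.48 and 6.09 on the shControl arrays and 8.83, 8.66, 8.75 and 8.74 on the shBrit1 arrays. All shBrit1 arrays lay far above all controls, which were near the detection limit, and the third control was the highest of them. The log2 difference was 3.07 (SE 0.16, 95% interval 2.72 to 3.43, adjusted p = 1.06e-06), higher than that of 99.3% of genes tested. Without shControl replicate 3 it was 3.28. With so dim a control level the fold depends on the background correction, and it was 4.35-fold with the authors' deposited log2 values and 3.94-fold with no correction. Its promoter, like that of CTSA, holds a pair of CACGTG matches.

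CTSK, a strong collagenase best known from the osteoclast, read 5.92, 6.13 and 6.86 on the shControl arrays and 7.78, 8.07, 8.02 and 8.01 on the shBrit1 arrays. The groups did not overlap, although the third control lay closer to the shBrit1 arrays than the other controls did. The log2 difference was 1.66 (SE 0.20, adjusted p = 0.000148). Leaving out shControl replicate 3 raised it to 1.94, and without background correction it was 1.05, or 2.07-fold.

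CTSL, a potent endopeptidase that also processes other lysosomal enzymes, went the other way. Its brighter probe read 12.07, 12.10 and 12.32 in shControl and 11.73, 11.64, 11.68 and 11.65 in shBrit1, so every shBrit1 array lay below every control, by a small margin. The log2 difference was -0.48 (SE 0.09, 95% interval -0.70 to -0.27, adjusted p = 0.00205). The second, dimmer CTSL probe gave 7.33, 7.30 and 6.21 in shControl and 6.39, 6.06, 6.21 and 6.24 in shBrit1. On this probe the third control lay among the shBrit1 arrays, and the groups overlapped. Its difference of -0.72 had an adjusted p of 0.0377, which became 0.132 and 0.133 without shControl replicate 1 or 2 and 0.0616 to 0.0917 without any 1 shBrit1 array, while without shControl replicate 3 the difference was -1.09 with an adjusted p of 2.88e-06. Both probes had a lower mean in shBrit1. On the second, the size and the call both turn on single arrays, and the call was lost in 8 of 17 other settings.

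CTSS, the cathepsin of antigen-presenting cells that trims the invariant chain, was detected on 1 of the 7 arrays, shBrit1 replicate 4. Its values ran from 4.82 to 4.96 in shControl and from 4.95 to 5.24 in shBrit1, at or near the lowest detected probe of each array (5.10 to 5.14), so no fold is given.

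**Figure D2:**
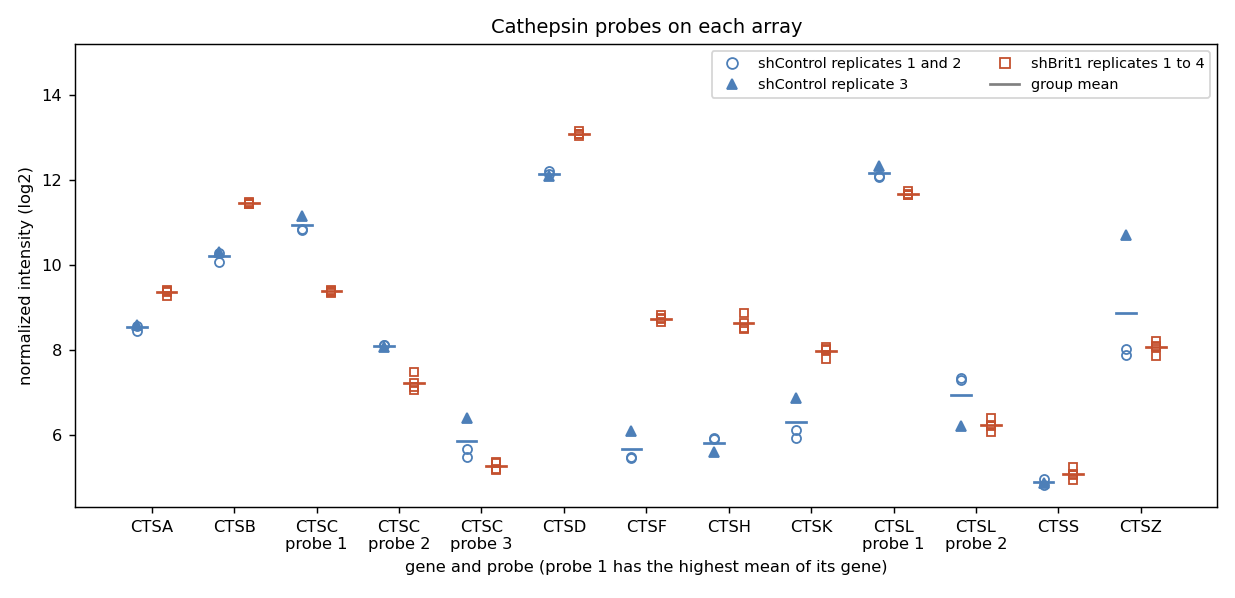
Normalized log2 intensity (y axis) of the 13 cathepsin probes (x axis) on each of the 7 arrays, with group means as short lines. Levels are comparable between arrays within a probe and not between probes. In CTSZ the third shControl array, at 10.70, lies far above all others.

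The cysteine exopeptidases did not move as one. CTSH, an aminopeptidase, rose almost as much as CTSF. It read 5.90, 5.93 and 5.60 in shControl and 8.88, 8.64, 8.50 and 8.52 in shBrit1, with a wide gap between the groups and the third control the lowest array. The log2 difference was 2.82 (SE 0.13, 95% interval 2.53 to 3.11, adjusted p = 5.71e-07), and 2.72 without shControl replicate 3. As for CTSF, the controls were close to background, and the difference was 3.89-fold with the authors' deposited values and 3.55-fold with no background correction.

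CTSB, a carboxydipeptidase and one of the most abundant lysosomal proteases, was bright on every array. The controls read 10.29, 10.07 and 10.30 and the shBrit1 arrays 11.48, 11.44, 11.47 and 11.44, so that the groups were tight and well apart. The log2 difference was 1.23 (SE 0.09, adjusted p = 7.21e-06), and 1.27 without shControl replicate 3.

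CTSC, dipeptidyl peptidase 1, which activates serine proteases of immune cell granules, fell on all of its 3 probes. The brightest read 10.85, 10.82 and 11.15 in shControl and 9.42, 9.36, 9.33 and 9.40 in shBrit1, a difference of -1.56 (SE 0.10, adjusted p = 4.15e-06), or -1.45 without shControl replicate 3. Every shBrit1 array lay below every control. The second probe read 8.12, 8.12 and 8.07 against 7.49, 7.14, 7.07 and 7.23, with a smaller difference of -0.87 (adjusted p = 0.000215). The third, close to background, read 5.48, 5.66 and 6.41 against 5.18, 5.36, 5.34 and 5.21. Its difference of -0.58 (adjusted p = 0.0371) shrank to -0.30 without shControl replicate 3, with the authors' deposited values its adjusted p was 0.0510, and leaving out any 1 shBrit1 array also lost the call (adjusted p 0.0629 to 0.0914). The probes thus share their direction and differ in size, and the dimmest is the least certain.

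CTSZ, a carboxypeptidase also called cathepsin X, gave no call, and 1 array decides its value. It read 8.02, 7.88 and 10.70 in shControl and 7.87, 8.08, 8.09 and 8.22 in shBrit1. The third control exceeded the mean of the other controls by 2.74 log2, and those controls lay within the range of the shBrit1 arrays. On all arrays the difference was -0.80 (SE 0.59, 95% interval -2.14 to 0.54, adjusted p = 0.284), and without shControl replicate 3 it turned to 0.11 (adjusted p = 0.396). Neither value passes the test, and the wide interval leaves room for a sizeable difference in either direction.

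The members of other catalytic classes rose by similar amounts. CTSD, the aspartic protease, read 12.20, 12.14 and 12.09 in shControl and 13.16, 13.03, 13.08 and 13.08 in shBrit1. The groups were far apart for their spread, with SDs of 0.06 and 0.05, and the log2 difference was 0.95 (SE 0.08, adjusted p = 1.88e-05). CTSA, the serine carboxypeptidase that also protects beta-galactosidase and neuraminidase, read 8.56, 8.44 and 8.58 against 9.37, 9.27, 9.38 and 9.41. Its groups did not overlap either, and the difference was 0.83 (SE 0.09, adjusted p = 5.32e-05). The third control lay 0.08 log2 above the mean of the other controls in CTSA and fell by 0.08 below it in CTSD. CTSA and CTSD had the most similar profiles of the 36 pairs of tested members. After centring on the shControl mean they differed by a root mean square of 0.107 log2 over the 7 arrays. CTSF lay at 1.70 from CTSA and 1.62 from CTSD. After this centring the measure mostly restates how far apart the log2 differences of 2 genes lie, so it adds little to the folds.

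By the same measure the genes most like CTSF among all genes tested were LEMD1 (0.0611), ID3 (0.0979), COL2A1 (0.102), ALDH3A1 (0.107) and FYB1 (0.127). COL2A1 was detected on 1 of the 3 control arrays, so its measured log2 difference of 3.17 rests on values at background. Those of the other 4 genes lay between 3.02 and 3.12. Each of the 5 was highest among the controls on the third array, as CTSF was. The measure itself favours this feature, as it does a log2 difference near that of CTSF.

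Of 5 cathepsin genes outside the 10, CTSE, CTSG and CTSW were detected on no array. CTSV, a close relative of CTSL found mainly in thymus and stratified epithelia, read 11.39, 11.35 and 12.20 in shControl and 9.83, 9.65, 9.66 and 9.67 in shBrit1. It fell 3.84-fold (log2 difference -1.94, SE 0.20, adjusted p = 4.67e-05), and 3.17-fold without shControl replicate 3, its highest array. Because CTSL and CTSV are similar in sequence, a probe of one could bind RNA of the other, and probe sequences were not used here. CTSO, a widely expressed cysteine cathepsin, read 5.63, 6.03 and 6.21 against 7.76, 7.95, 7.85 and 8.06, a 3.86-fold rise (log2 difference 1.95, SE 0.15, adjusted p = 7.82e-06). In both genes the groups did not overlap. The CTSO fold was 2.43 with the authors' deposited values and 2.26 with no background correction.

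The partner proteins of the cathepsins were mostly higher. In a list of 10 that mature, bind or work beside them, 9 rose and 1 fell, with a median log2 difference of 1.12. Over all genes tested 29.5% were called higher and 30.1% lower. The list was chosen with earlier results of these data known, so its count is a description and no independent support. PRCP, a lysosomal serine carboxypeptidase, read 10.97, 10.97 and 11.04 in shControl and 12.80, 12.86, 12.79 and 12.86 in shBrit1, a 3.57-fold rise (adjusted p = 4.76e-07). The tripeptidyl peptidase gene TPP1 rose 2.45-fold (log2 difference 1.29, SE 0.08, adjusted p = 3.28e-06). Both partners that form a complex with CTSA rose, NEU1, the sialidase, 2.64-fold (adjusted p = 1.58e-05) and GLB1, beta-galactosidase, 1.56-fold (adjusted p = 0.000147). GRN, the gene of progranulin, whose granulins bind cathepsins, rose 3.07-fold on its brighter probe (adjusted p = 3.86e-05), and its second probe gave 3.56-fold. CD74, the invariant chain that cathepsins cleave, was below the detection limit on each control array. Its probe passed the detection filter through the 4 shBrit1 arrays alone, so no p-value is given and its place among the 9 is no support. Under the main background correction the lower bound on its fold was 1.88. The measured means were 4.92 and 6.02. That bound sets the shBrit1 mean against the control arrays at the higher of their own value and their lowest detected signal under the main background correction. The CD74 fold was lower than this bound under other processing, 1.52 with the authors' deposited values and 1.44 with no background correction. A second CD74 probe was detected on no array. The remaining higher genes were PSAP, the saposin precursor (2.20-fold, adjusted p = 0.000735), LIPA, the lysosomal acid lipase (1.53-fold, adjusted p = 0.00222), and LGMN, a protease that cleaves cathepsin precursors (1.30-fold, adjusted p = 0.0323). PPT1, a palmitoyl thioesterase, was the one that fell (1.23-fold, adjusted p = 0.0176). These 4 genes are named after their values were seen. The LGMN call was lost in 11 of 17 other settings, among them those without shControl replicate 1 or 2 (adjusted p = 0.118 and 0.114), without any 1 shBrit1 array (0.0566 to 0.0776) and with median scaling, where the log2 difference was 0.08 (adjusted p = 0.690). LIPA was not called with median scaling (adjusted p = 0.137), nor PPT1 without shControl replicate 2 (adjusted p = 0.0720).

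Of 14 listed cathepsin inhibitors 8 were tested, 1 rose, 3 fell and 4 were not called, that is 50% called against 59.6% of all genes tested. CST6, cystatin M/E, which restrains CTSL and CTSV in skin, read 8.96, 8.90 and 8.14 in shControl and 7.44, 7.22, 7.02 and 7.06 in shBrit1, a 2.79-fold fall (log2 difference -1.48, SE 0.20, adjusted p = 0.000291). Its second tested probe gave a 3.51-fold fall. SERPINB13, a serpin that inhibits CTSK and CTSL, fell 2.80-fold from a mean of 6.85 ± 0.11 (SD, n = 3) to 5.37 ± 0.14 (SD, n = 4) (adjusted p = 5.84e-06). The shBrit1 arrays were near background, and the fall was 1.75-fold with the authors' deposited values and 1.65-fold with no background correction. CSTB, the intracellular cystatin B, rose 1.36-fold with an adjusted p of 0.0495, and SERPINB3 fell 1.31-fold with an adjusted p of 0.0491. Both of those calls were lost in many of the other settings, CSTB in 9 of 17 and SERPINB3 in 11 of 16. Leaving out shControl replicate 2 or 3 or any 1 shBrit1 array put CSTB at an adjusted p of 0.0533 to 0.114, and leaving out shControl replicate 2 or 3 or shBrit1 replicate 1, 2 or 4 put SERPINB3 at 0.0715 to 0.140. CST3 and CSTA, singled out after their values were seen because cystatin C is the main secreted inhibitor and cystatin A its epithelial counterpart inside cells, did not pass the test. The CST3 difference was 0.22 (95% interval -0.10 to 0.54, adjusted p = 0.220) and that of CSTA 0.52 (95% interval 0.02 to 1.02, adjusted p = 0.0747). For CSTA the third control, at 10.04, lay above all shBrit1 arrays (9.78 to 10.02), while the other controls read 9.10 and 9.08. Without that array both differences passed the test, CSTA at 0.84 (adjusted p = 1.1e-05) and CST3 at 0.40 (adjusted p = 0.00195). Those p-values rest on shControl replicates 1 and 2 as the only controls, and these may not be separate cultures.

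Of 14 tested genes of the sorting machinery that carries cathepsins from the Golgi, 3 rose, 4 fell and 7 were not called, with a median log2 difference of -0.04. The share called was 50%, with 21.4% higher and 28.6% lower, near the 59.6%, 29.5% and 30.1% of all genes tested. IGF2R, the large mannose 6-phosphate receptor, rose from 11.22, 11.17 and 11.64 to 11.98, 12.13, 12.14 and 12.04, or 1.65-fold (adjusted p = 0.00117), and with median scaling its adjusted p was 0.0530. The small receptor gene M6PR, named after its value was seen, had a difference of -0.22 (adjusted p = 0.0604), which passed the test in 8 of 17 other settings, as without shControl replicate 3 (-0.26, adjusted p = 0.0211). GGA2, an adaptor of both receptors, rose 1.79-fold (adjusted p = 0.000368). GNPTAB, which encodes the catalytic subunits of the enzyme that makes the tag, fell 1.51-fold (adjusted p = 0.00679), and NAGPA, which uncovers the tag, rose 1.29-fold (adjusted p = 0.0141). The rise of NAGPA was not called in 5 of 17 other settings, among them those without shControl replicate 1 or 2 (adjusted p = 0.0522 and 0.0577). Of 5 subunits of the clathrin adaptor AP-1 on the list, AP1B1 fell 2.70-fold (adjusted p = 1.28e-05) and AP1G1 1.55-fold (adjusted p = 0.000599), and the others were not called. GGA1, also named after its value was seen, fell 1.25-fold (adjusted p = 0.0422), a call lost in 14 of 17 other settings, among them those without shControl replicate 1 or 2 (adjusted p = 0.0723 and 0.147) or shBrit1 replicate 1, 2 or 4 (0.0842 to 0.109).

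**Figure D3:**
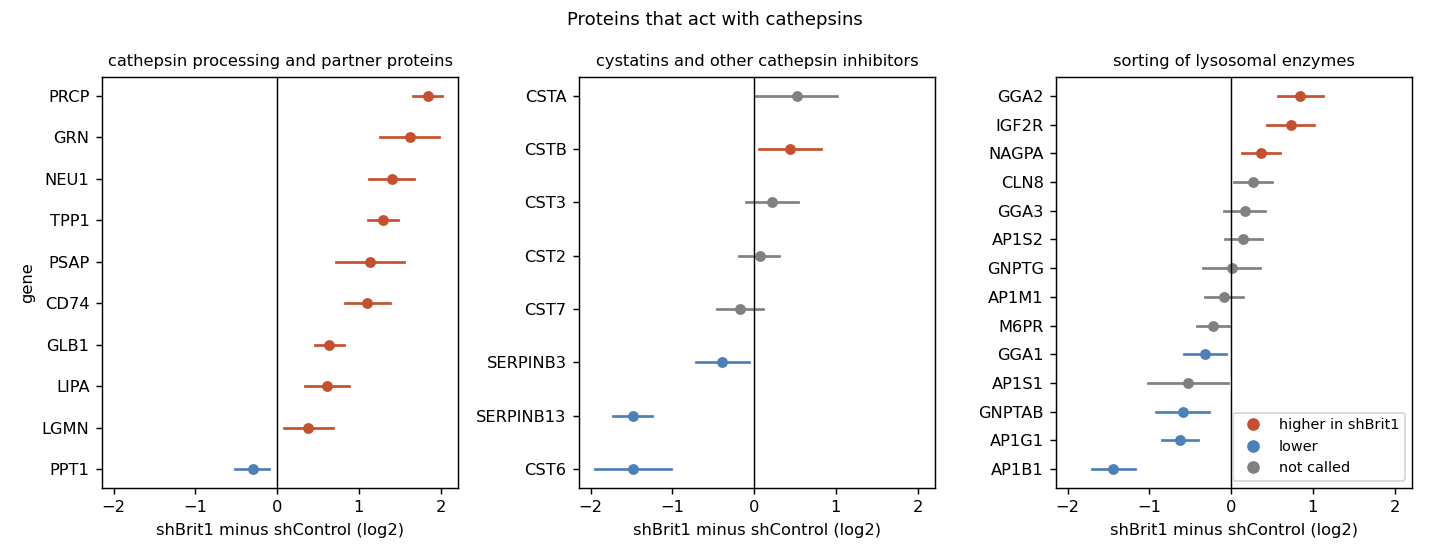
Difference between shBrit1 and shControl in log2 units (x axis) with its 95% interval for each tested gene (y axis) of the partner, inhibitor and sorting lists. Of the 10 partners 9 lie on the higher side, whereas inhibitors and sorting genes lie on both sides of 0.

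Markers of other cell types were checked because macrophages and fibroblasts are rich in cathepsins. Of 13 macrophage markers 1, CSF1R, was detected on every array, and TYROBP, AIF1, MRC1, C1QA and C1QB were detected on none. The leukocyte antigen gene PTPRC has 3 probes, none of which passed the detection filter. The summed normalized intensity of the 13 ran from 567 to 575 in shControl and from 1050 to 1200 in shBrit1, and CD14 (6.39-fold) and CSF1R (2.70-fold) were higher in shBrit1 (adjusted p = 5.37e-06 and 4.17e-06). In shBrit1 CD14 and CSF1R were by far the brightest of the 13, so the rise of the sum mostly restates them. CD14 was detected on 2 of the 3 control arrays, and its fold was 3.34 with the authors' deposited values and 3.03 with no background correction. Of 10 fibroblast markers 4, THY1, PDGFRA, PDGFRB and LUM, were detected on no array. The summed intensity of the 10 ran from 1510 to 1750 in shControl and from 1210 to 1410 in shBrit1. FAP was by far the brightest of them (mean log2 10.35 in shControl and 9.79 in shBrit1), so the sum mostly follows FAP. Of the 4 tested, the collagen genes COL1A1 (2.16-fold, adjusted p = 0.00167) and COL3A1 (1.89-fold, adjusted p = 0.00984) were higher in shBrit1, and FAP was lower (1.47-fold, adjusted p = 0.00235). The third control was the highest control for COL1A1, at 6.77, and the lowest for COL3A1, at 4.93, where the probe was detected on 2 of the 3 control arrays. With the authors' deposited values the folds were 1.61 for COL1A1 and 1.42 for COL3A1. With no background correction they were 1.54 and 1.36. Of the tested macrophage markers 2 of 3 were called, and of the fibroblast markers 3 of 4, against 59.6% of all genes tested. The part of these macrophage and fibroblast markers in the cathepsin differences was not tested.

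**Figure D4:**
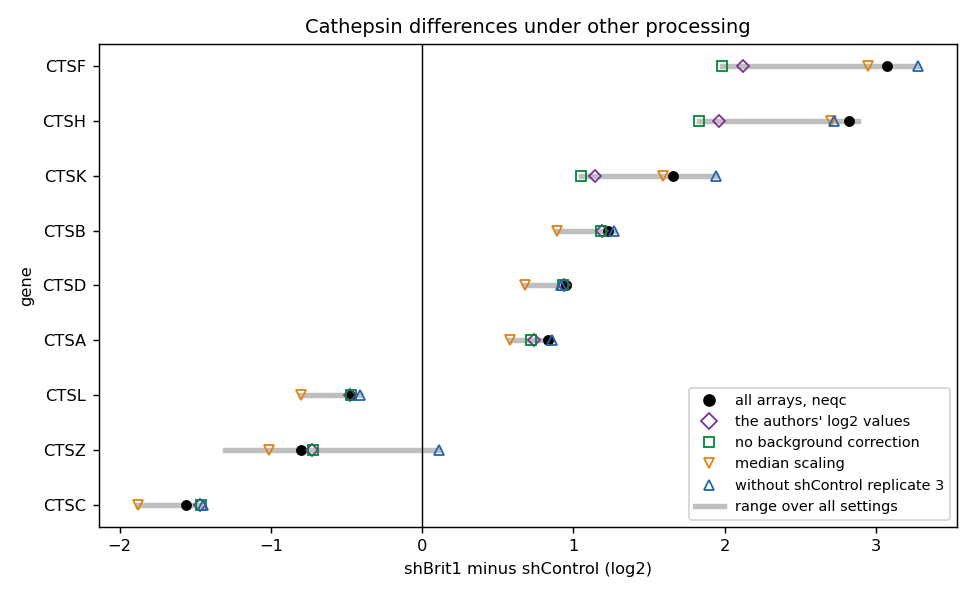
Log2 difference of each tested cathepsin (x axis) under the main processing and 4 of the alternatives, with grey bars for the range over all settings. The order of CTSF, CTSH and CTSK is unchanged in the settings drawn, their sizes shrink without background correction, and CTSZ crosses 0 when the third shControl array is left out.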

How the data were processed

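Per the file headers, the authors' deposited table of bead signals pairs each intensity with a detection p-value on every one of 7 arrays. The intensity values the authors deposited are linear and differ in their medians (75.9 to 87.6), so they were not normalized between arrays. No source used here gives the scanner software. A second deposited table holds the authors' log2 values, which are uncentred, run in the direction of the signal and have sorted values within 0.000887 of each other on all arrays (median 6.37), as quantile normalization gives. It served as an alternative. A line without values was left out. Each detection p-value deposited by the authors was tied to its array by rank correlation with the signal.

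Signals were processed with neqc (limma 3.58.1, R 4.3.3), that is normexp whose negative controls are estimated through the detection p-values, offset 16, then quantile normalization and log2. The 17967 probes detected at a p-value under 0.05 on 3 or more arrays were fitted with lmFit and eBayes (two-sided, Benjamini-Hochberg over all of them). Folds are the antilog of log2 differences. Gene counts use 1 probe per gene, the one with the highest mean. Symbols are those of the platform annotation, checked by gene ID against RefSeq, with 1 symbol for 24782 probes, several for 0 and none for 23919. On simulated data for this comparison (17967 probes) the fit found 80.0% of 50 probes changed by 1 log2, 38.0% of 50 changed by 0.5, and made 7 false calls. The simulation changed only a small part of its probes and used independent noise, whereas 53.8% of the real probes were called. Its rates therefore need not hold for the real data.

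The cathepsins and the accompanying lists were chosen with earlier results of these data known. Named genes are all cathepsins, up to 6 called genes of each other list with the smallest p-value (epithelial markers are given as counts), and the 5 genes most like the cathepsin with the largest difference, by root mean square difference of centred profiles. Alternatives were other background corrections, normalizations, filters, probe choices and variance models, the authors' values, a replicate block, averaging shControl replicates 1 and 2, whose descriptions share a letter, and leaving out each array. Protein sequences were not used here.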

Additional observations from a re-analysis of the deposited data

Results flagged for a closer look

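Among the 4 shBrit1 arrays, 50 probes of the cathepsins and other named genes were checked for a single array far from the rest, and 3 stood out, where chance alone marks about 1 in 20. CTSV read 9.83 on shBrit1 replicate 1, above 9.65 to 9.67 on the other arrays, a distance that is small beside its fall from the controls. AP1B1 read 8.52 on shBrit1 replicate 4, below 8.82 to 8.88 on the others. A CTSE probe, which was detected on no array, read 4.85 on shBrit1 replicate 4 against 4.69 to 4.71. None of the probes of the 10 cathepsin genes had such an array. The shControl group of 3 arrays was too small for this check.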

How the results depend on the processing

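The counts of 6 higher and 2 lower cathepsins were the same in all 17 settings and with both other ways of choosing a probe. CTSZ turned from -0.80 to 0.11 without shControl replicate 3, and lay between -1.30 and 0.11 with 1 array left out. Over 45 probes of cathepsins and other named genes, 680 of 761 values kept their direction and call, 69 lost the call, 11 gained one and 1 turned. The lost calls were those of the dimmest CTSC probe (7 settings), the second CTSL probe (8), SERPINB3, CSTB, NAGPA, IGF2R, LGMN, GGA1, PPT1 and LIPA, and the gained ones those of M6PR, CST3 and CSTA. With median scaling 9 rather than 14 genes of the accompanying lists were called higher, and over all probes 3589 were higher and 5690 lower, against 4829 and 4840. The cause was not tested. With the replicate number as a block, 4252 probes were called higher and 4205 lower, with the same cathepsin calls. Whether the numbers pair the arrays is not given. Deviations of same-numbered arrays correlated at 0.10, -0.02 and 0.09. shControl replicates 1 and 3 correlated best with the shBrit1 array of their own number but replicate 2 with shBrit1 replicate 4. So few values cannot decide whether the arrays were paired. Leaving out 1 array gave 4319 to 5573 probes higher and 4282 to 5821 lower. Signal over background limits, among others, the folds of CTSF, CTSH, CTSK, CTSO, CD74, CD14, COL1A1 and COL3A1, whose controls were dim. It also limits that of SERPINB13, dim in shBrit1.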
